A study of Mus musculus with 12 samples.

Results

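Naive pluripotency is the state of the early epiblast and of mouse embryonic stem (ES) cells, and it is held by a set of nuclear proteins that are lost when the cells commit to a lineage. The signals of 9 of their genes, Nanog, Zfp42, Esrrb, Tfcp2l1, Klf2, Klf5, Tbx3, Nr0b1 and Dppa3, are described here across all 7 groups of a mouse microarray study of neurospheres derived from fibroblasts. The 9 genes were chosen by name as known factors of this state and not by a threshold on their values. Earlier results of these data were known when they were chosen. Each is represented by the probe set that names only that gene and was brightest on average over the 12 arrays. All 9 passed the filter on low signal and are 9 of the 13650 genes tested. Neurospheres are clusters in which neural stem cells and their progeny grow in suspension, and the series title speaks of direct induction of neural stem cells. Adult fibroblast-derived neurospheres were on 2 arrays, 1 grown with EGF and cAMP and 1 with LIF, and embryonic fibroblast-derived neurospheres on 2 arrays, 1 with LIF and cAMP and 1 with LIF. The pluripotent cells were the iPS line 38C2 and the ES line EB3, with 1 array each, and primary and secondary neurospheres grown from either line had 1 array per line and stage. The other arrays held neurospheres from the ganglionic eminence (GE) of the brain at embryonic day 14 and adult skin fibroblasts, with 1 array each. All neurospheres were kept in a medium called MHM, and the source animals were C57BL/6 except for the ES and iPS lines. Per the labels, the iPS and ES cells were grown in standard conditions, with no medium or factor named. The labels name neither the factors used on the fibroblasts nor any cell sorting, and nothing in them marks the arrays of a group as repeats of 1 culture condition. The p-values below therefore measure only the spread between these arrays.

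LIF acts through its receptor, JAK kinases and STAT3 to hold ES cells in the naive state, and Tfcp2l1, Klf5 and Tbx3 are among the genes it is known to sustain. Nanog, Esrrb and the Krüppel-like factors bind many of the same enhancers as Oct4 (Pou5f1) and Sox2 and keep each other expressed, while Zfp42 and Dppa3 are better known as markers of the state than as factors needed for it. During exit from the naive state, these genes are switched off as those of the formative and primed states, such as Fgf5 and Otx2, come on, and neural stem cells keep Sox2 but not the naive set.

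The genes lie apart from each other in the genome, except for Dppa3 (chr6:122626424-122630271) and Nanog (chr6:122707489-122714633), which lie close together on chromosome 6 in GRCm38.p6. By the same gene table, Zfp42 spans chr8:43295067-43307009 and Klf2 chr8:72319062-72321654 on chromosome 8, Tfcp2l1 chr1:118627923-118685168, Tbx3 chr5:119670534-119684724, Esrrb chr12:86361117-86521628, Klf5 chr14:99298691-99313412 and Nr0b1 chrX:86191775-86195947. RefSeq promoter windows, from 250 bases before to 50 after an annotated start, were matched for 6 of the 9 genes, with 8 windows in all. The starts behind the Tfcp2l1 window and the second windows of Nanog and Esrrb lie inside the spans given above, that of Esrrb far inside. Those of Zfp42, Nanog and Tfcp2l1 are shown because they belong to the factor with the smallest share of the pluripotent signal in fibroblast-derived neurospheres and to a pair with larger shares, and because they differ in the letters they hold. Each is written 5′ to 3′ on the strand of the gene, and capitals mark a match, on either strand, to a core motif of an octamer factor (ATGCAAAT), a Sox factor (CATTGT) or a Krüppel-like factor (GGGTGTGG, or the variant GGGCGTGG).

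Zfp42, chr8:43306960-43307259, minus strand: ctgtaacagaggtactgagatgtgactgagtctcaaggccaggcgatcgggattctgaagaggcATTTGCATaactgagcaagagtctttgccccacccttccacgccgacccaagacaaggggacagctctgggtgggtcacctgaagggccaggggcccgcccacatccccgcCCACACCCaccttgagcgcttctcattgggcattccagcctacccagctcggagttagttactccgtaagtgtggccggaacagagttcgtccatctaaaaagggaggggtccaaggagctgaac
Nanog, chr6:122707239-122707538, plus strand: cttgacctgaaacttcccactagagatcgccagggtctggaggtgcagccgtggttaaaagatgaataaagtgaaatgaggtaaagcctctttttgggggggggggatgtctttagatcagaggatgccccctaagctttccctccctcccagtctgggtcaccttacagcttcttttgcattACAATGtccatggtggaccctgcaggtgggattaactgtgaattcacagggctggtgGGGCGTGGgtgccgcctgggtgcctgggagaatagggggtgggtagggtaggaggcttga
Tfcp2l1, chr1:118627695-118627994, plus strand: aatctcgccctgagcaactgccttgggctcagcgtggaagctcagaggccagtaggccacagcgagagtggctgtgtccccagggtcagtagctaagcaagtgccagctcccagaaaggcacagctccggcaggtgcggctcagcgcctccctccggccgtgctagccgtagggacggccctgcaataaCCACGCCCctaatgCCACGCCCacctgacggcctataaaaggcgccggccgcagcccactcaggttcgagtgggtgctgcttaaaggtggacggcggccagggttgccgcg

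The Zfp42 window holds an octamer from -186 to -179 and a Krüppel-like match from -75 to -68, counted from the annotated start behind the window. In the Nanog window a Sox match lies from -67 to -62 and the Krüppel-like variant from -10 to -3. The Tfcp2l1 window holds the variant at both -61 to -54 and -47 to -40. Of the other windows, the first of Esrrb held a Sox match, the second of Nanog the same matches as the first, which it overlaps, and the second of Esrrb and those of Klf2 and Nr0b1 none of the motifs searched. Over 32544 promoters of the same length, 1.75% held the octamer, 12.4% the Sox letters, 3.57% the Krüppel-like letters and 5.37% the variant. Further searches for an Esrrb motif (TCAAGGTCA, in 0.412% of promoters) and a STAT motif (TTCCNGGAA, in 1.16%) found no match in the 8 windows. None of the motifs overlaps another of those searched in the windows shown, and a match is a run of letters, not a binding site. Only exact letters were counted, so a window without a match can still hold a near match. In the Nanog window, ttttgcat just before the Sox match differs only in its first base from ATTTGCAT, the octamer read on the other strand.

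The deposited signals were scaled by the authors so that every array had the same trimmed mean, 100, and between 40.5% and 49.1% of probe sets reached 20 on an array. Differences are of log2(signal + 5) and carry the standard error (SE) of a limma fit across all genes, with Benjamini-Hochberg adjusted p-values over the 13650 genes. A gene is called where that p is under 0.05. Pou5f1, the core pluripotency factor, had a signal of 2818 in iPS and 2462 in ES cells, and its signals of 0.7 in GE neurospheres and 1.3 in fibroblasts went with their labels. Between the lines, the primary neurosphere arrays stood apart from each other, with Pou5f1 at 9.6 in the iPS line and 1174 in the ES line. That spread enters the error of every comparison, also of those without primary neurospheres, so the calls that change without either primary array are given with each result. No 2 arrays held identical values. Since RNA of whole cultures was measured, fewer cells with a transcript and less of it per cell cannot be told apart.

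**Figure D1:**
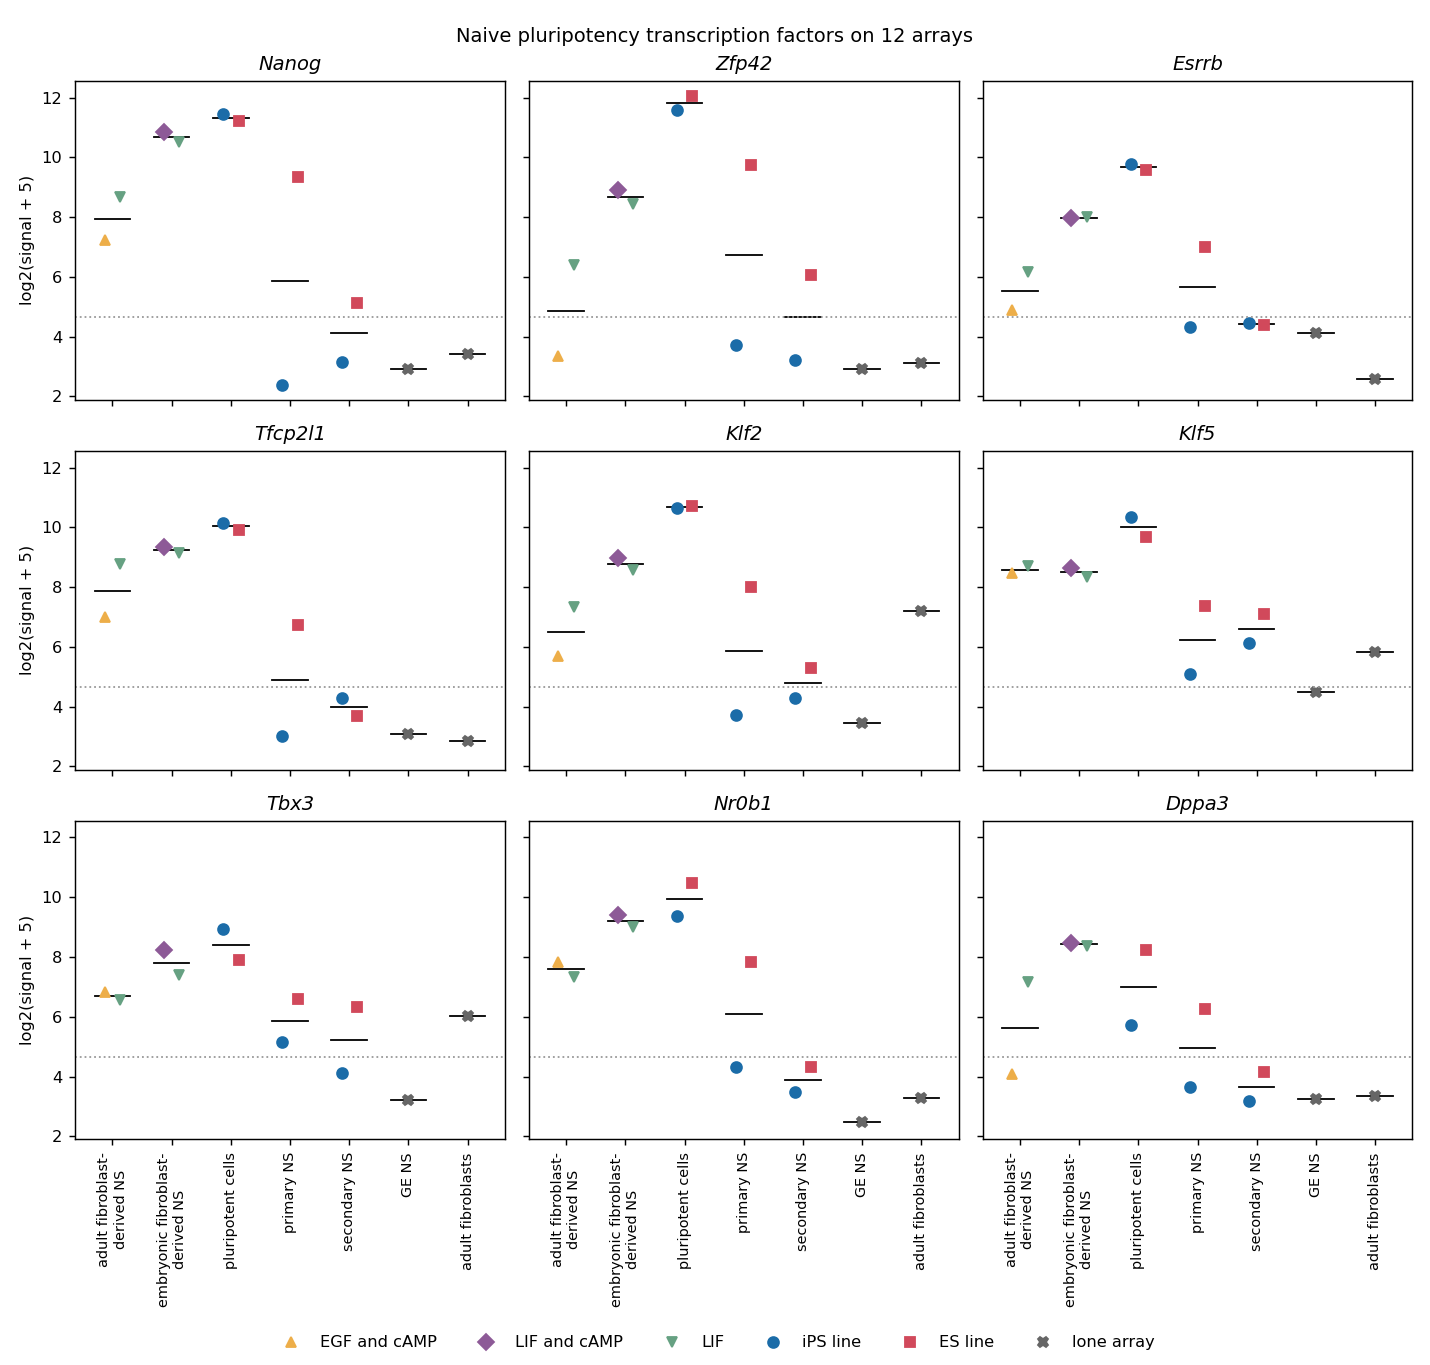
Signal of each of the 9 genes on the 12 arrays as log2(signal + 5), with 1 point per array, a black line at the group mean and a dotted line at the filter signal of 20 (NS, neurospheres; GE, ganglionic eminence). For 8 of the 9 genes the pluripotent cells have the highest group mean, for Dppa3 the embryonic fibroblast-derived neurospheres have it, and the 2 primary neurosphere arrays lie far apart.

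Nanog, a homeodomain protein that holds ES cells in self-renewal, had a signal between those of fibroblasts and pluripotent cells in fibroblast-derived neurospheres. Its signal was 145 (EGF and cAMP) and 402 (LIF) in adult-derived neurospheres and 1845 (LIF and cAMP) and 1454 (LIF) in embryonic-derived neurospheres, against 2779 in iPS and 2389.6 in ES cells. Primary neurospheres had 0.2 (iPS line) and 648 (ES line), secondary neurospheres 3.9 and 29.7, GE neurospheres 2.6 and fibroblasts 5.6. All 4 fibroblast-derived arrays lay below both pluripotent arrays and above the secondary, GE and fibroblast arrays, and the ES-derived primary array lay above both adult-derived arrays. The difference from pluripotent cells was -3.39 ± 1.79 (SE) for adult-derived neurospheres (adjusted p = 0.21, limma) and -0.65 ± 1.79 for embryonic-derived neurospheres (adjusted p = 0.825, limma), and neither was called.

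Esrrb, an orphan nuclear receptor that can stand in for Nanog in ES cells, had the smallest adjusted p of the 9 factors for adult-derived neurospheres, and for all 4 fibroblast-derived arrays together, against pluripotent cells. The signal was 24.5 (EGF and cAMP) and 67.2 (LIF) in adult-derived and 246 (LIF and cAMP) and 251 (LIF) in embryonic-derived neurospheres, against 871 in iPS and 754 in ES cells. It was 15.2 (iPS line) and 122 (ES line) in primary and 16.8 and 16.2 in secondary neurospheres, 12.6 in GE neurospheres and 1 in fibroblasts. The adult-derived array in EGF and cAMP was close to the secondary neurospheres, and the ES-derived primary array lay between the adult-derived and the embryonic-derived arrays. Esrrb fell in adult-derived neurospheres against pluripotent cells, with a difference of -4.14 ± 0.75 (SE, adjusted p = 0.00749, limma), while the difference of -1.68 ± 0.75 in embryonic-derived neurospheres was not called (adjusted p = 0.133, limma). The 95% interval of the embryonic-derived difference ran -3.39 to 0.024.

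Nr0b1, or Dax1, is a nuclear receptor without the usual DNA-binding domain that partners with Oct4 in ES cells. Its signal was 224 (EGF and cAMP) and 156 (LIF) in adult-derived and 679 (LIF and cAMP) and 509 (LIF) in embryonic-derived neurospheres, against 662 in iPS and 1435 in ES cells. Elsewhere it was 15 (iPS line) and 225 (ES line) in primary and 6.1 and 14.8 in secondary neurospheres, 0.6 in GE neurospheres and 4.8 in fibroblasts. The embryonic-derived and the pluripotent arrays overlapped, since the array in LIF and cAMP was above the iPS array, and the ES-derived primary array was level with the higher adult-derived one. Neither the adult-derived difference from pluripotent cells of -2.35 ± 0.95 (adjusted p = 0.112, limma) nor the embryonic-derived one of -0.72 ± 0.95 (adjusted p = 0.619, limma) was called. With the line as a replicate block the adult-derived difference passed, at an adjusted p of 0.024. The fibroblast-derived, GE and fibroblast arrays have no line, so the block pairs none of them. In comparisons with them the block left the difference as it was and changed only the error, here to an SE of 0.59.

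Klf2, a Krüppel-like zinc finger factor that is degraded when ERK signalling rises, was lower than in pluripotent cells on all 4 fibroblast-derived arrays. The signal was 46.7 (EGF and cAMP) and 156 (LIF) in adult-derived and 496 (LIF and cAMP) and 376 (LIF) in embryonic-derived neurospheres, against 1592 in iPS and 1687 in ES cells. Primary neurospheres had 8.1 (iPS line) and 251 (ES line), secondary neurospheres 14.4 and 34.5, GE neurospheres 5.9 and fibroblasts 140.4. The fibroblasts thus carried a Klf2 signal between those of the adult-derived arrays, while the other 8 factors were lower in fibroblasts than on any fibroblast-derived array. Klf2 fell in adult-derived neurospheres, with a difference of -4.17 ± 1.16 (adjusted p = 0.0356, limma), and the embryonic-derived difference was -1.91 ± 1.16 (adjusted p = 0.258, limma, not called).

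Klf5, a related zinc finger factor of the naive circuit and of the early trophectoderm, varied least among the fibroblast-derived arrays. The signal was 352 (EGF and cAMP) and 409 (LIF) in adult-derived and 395 (LIF and cAMP) and 318 (LIF) in embryonic-derived neurospheres, against 1311 in iPS and 818 in ES cells. It was 29 (iPS line) and 161 (ES line) in primary and 64.7 and 131 in secondary neurospheres, 17.7 in GE neurospheres and 52 in fibroblasts. The adult-derived and embryonic-derived arrays overlapped, and all 4 lay above every other neurosphere and the fibroblasts and below both pluripotent arrays. The differences from pluripotent cells were -1.44 ± 0.66 for adult-derived (adjusted p = 0.151, limma) and -1.54 ± 0.66 for embryonic-derived neurospheres (adjusted p = 0.12, limma), and neither was called.

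Tfcp2l1, a factor of the grainyhead family that STAT3 induces in ES cells, was set apart from the neurospheres of the pluripotent lines. The signal was 122 (EGF and cAMP) and 434 (LIF) in adult-derived and 642 (LIF and cAMP) and 556 (LIF) in embryonic-derived neurospheres, against 1136 in iPS and 951 in ES cells. It was 3.1 (iPS line) and 102 (ES line) in primary and 14.4 and 7.9 in secondary neurospheres, 3.5 in GE neurospheres and 2.2 in fibroblasts. All 4 fibroblast-derived arrays were above all of these, the ES-derived primary array included, and below both pluripotent arrays. The differences from pluripotent cells of -2.14 ± 1.03 for adult-derived (adjusted p = 0.171, limma) and -0.79 ± 1.03 for embryonic-derived neurospheres (adjusted p = 0.615, limma) were not called.

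Tbx3, a T-box factor also used in limb development, overlapped between the embryonic-derived and the pluripotent arrays. The signal was 109.9 (EGF and cAMP) and 88.8 (LIF) in adult-derived and 294 (LIF and cAMP) and 164 (LIF) in embryonic-derived neurospheres, against 482 in iPS and 231 in ES cells. It was 30.4 (iPS line) and 92.1 (ES line) in primary and 12.2 and 76 in secondary neurospheres, 4.3 in GE neurospheres and 60.5 in fibroblasts. The embryonic-derived array in LIF and cAMP exceeded the ES array, and the adult-derived array in LIF was just below the ES-derived primary array. Neither the adult-derived difference of -1.71 ± 0.76 (adjusted p = 0.14, limma) nor the embryonic-derived one of -0.59 ± 0.76 (adjusted p = 0.607, limma) was called.

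Zfp42, or Rex1, a zinc finger protein of the YY1 family whose loss marks exit from the naive state, differed most. The signal was 5.2 (EGF and cAMP) and 79.1 (LIF) in adult-derived and 476 (LIF and cAMP) and 346 (LIF) in embryonic-derived neurospheres, against 3058 in iPS and 4299 in ES cells. It was 8.1 (iPS line) and 856 (ES line) in primary and 4.4 and 62.6 in secondary neurospheres, 2.5 in GE neurospheres and 3.6 in fibroblasts. The adult-derived array in EGF and cAMP was as low as the fibroblasts and iPS-derived neurospheres, and the ES-derived primary array was above all 4 fibroblast-derived arrays. Zfp42 fell in adult-derived neurospheres against pluripotent cells, with a difference of -6.95 ± 1.79 (adjusted p = 0.0276, limma), and the embryonic-derived difference of -3.14 ± 1.79 was not called (adjusted p = 0.23, limma).

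Dppa3, or Stella, is known for shielding maternal methylation in the zygote rather than as a classical transcription factor, and its order of groups was its own. The signal was 12.1 (EGF and cAMP) and 137 (LIF) in adult-derived and 351 (LIF and cAMP) and 329 (LIF) in embryonic-derived neurospheres, against 48.3 in iPS and 295 in ES cells. It was 7.7 (iPS line) and 71 (ES line) in primary and 4 and 12.9 in secondary neurospheres, 4.5 in GE neurospheres and 5.1 in fibroblasts. Both embryonic-derived arrays exceeded both pluripotent arrays, which themselves lay far apart, and the adult-derived array in EGF and cAMP was no higher than the ES-derived secondary array. The differences from pluripotent cells were -1.36 ± 1.19 for adult-derived (adjusted p = 0.446, limma) and 1.45 ± 1.19 for embryonic-derived neurospheres (adjusted p = 0.406, limma), neither called, and the 95% interval of the embryonic-derived difference ran -1.25 to 4.15.

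Counted over the 9 factors, 3 fell in adult-derived neurospheres against pluripotent cells, Zfp42, Esrrb and Klf2. Of all genes, 21.4% were called there in either direction and 6.41% were called lower. In embryonic-derived neurospheres 0 of 9 were called by limma, beside 24.8% of all genes. An unadjusted p under 0.05 was held by 1 (Klf5), beside 5305 of the 13650 genes. With all 4 fibroblast-derived arrays together, Zfp42 (-5.05 ± 1.55), Esrrb (-2.91 ± 0.65) and Klf2 (-3.04 ± 1.001) were again lower than in pluripotent cells. Their adjusted p-values by limma were 0.0383, 0.0122 and 0.0489, beside 9.77% of all genes lower and 30.2% called in either direction. The median difference of the 9 was -1.54, and that of all genes 0.16. The 3 comparisons share the pluripotent arrays and the last shares its arrays with the others, so they do not stand as separate tests. With the line as a replicate block, Klf5 (adjusted p = 0.0481) and Nr0b1 (adjusted p = 0.0492) joined them, for 5 of 9.

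The number of factors called against pluripotent cells depended on the arrays of other groups. The number of all genes called also changed between the settings. The counts below have no share of all genes beside them, so they are not read as a result about the factors. Without either the iPS-derived or the ES-derived primary neurosphere array, 7 of 9 were lower in the 4 fibroblast-derived arrays, all but Tbx3 and Dppa3, the same 7 in adult-derived neurospheres alone, and 3 (Esrrb, Klf2 and Klf5) in embryonic-derived ones. In a fit of the 2 groups alone, 6 were lower in adult-derived and 5 in embryonic-derived neurospheres. Without the iPS or the ES array 0 of 9 were called for the 4 arrays together, and 0 of 9 were called for adult-derived neurospheres without their array in EGF and cAMP. With the adult-derived array in LIF, either embryonic-derived array or either pluripotent array left out in turn, only Esrrb was called there.

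**Figure D2:**
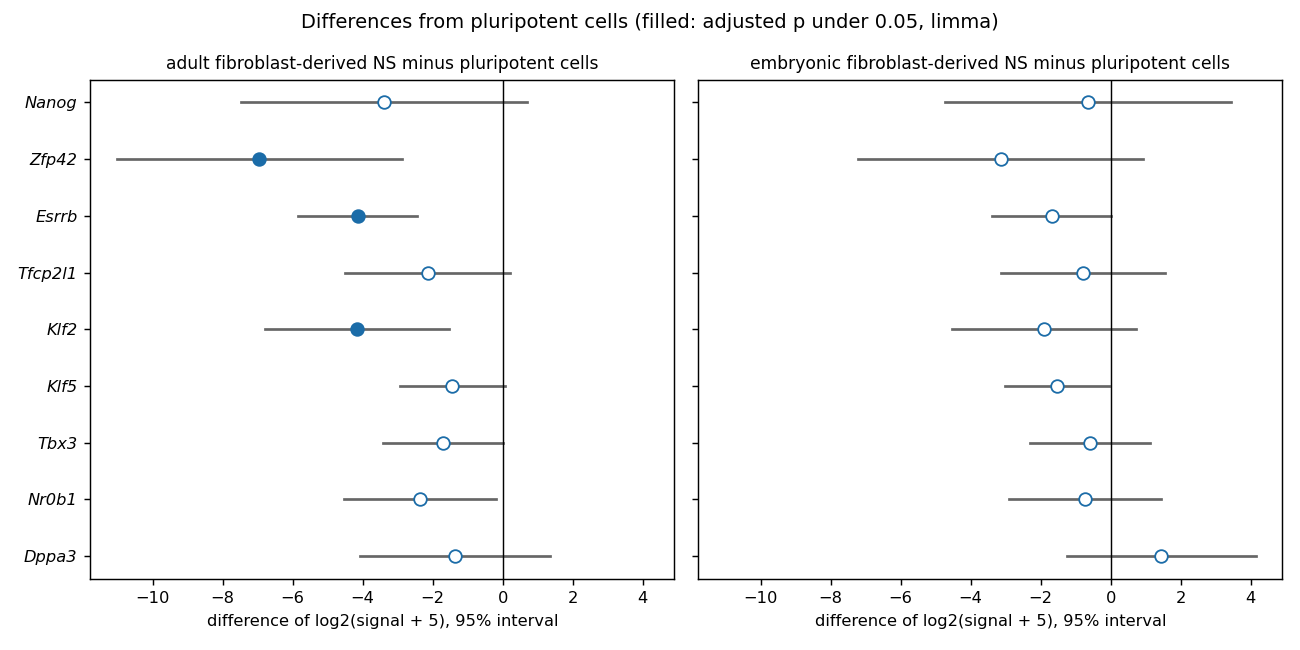
Difference of log2(signal + 5) from pluripotent cells for each gene in adult (left) and embryonic (right) fibroblast-derived neurospheres (NS), with its 95% interval; filled points have an adjusted p under 0.05. Zfp42, Esrrb and Klf2 are filled on the left and none on the right, and only Dppa3 on the right lies above 0.

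As a share of the mean signal of the iPS and ES arrays, the factors spread widely within each fibroblast-derived array. Zfp42 had the lowest share of the 9 on all 4 arrays, at 0.141% (EGF and cAMP) and 2.15% (LIF) in adult-derived and 12.9% (LIF and cAMP) and 9.41% (LIF) in embryonic-derived neurospheres. Klf5 had the highest share in the adult-derived array with EGF and cAMP (33.1%), and Dppa3 the highest on the other 3, at 79.8%, 205% and 192%. The median share over the 9 genes was 7.06% and 15.5% in adult-derived neurospheres and 61.5% and 46.0% in embryonic-derived neurospheres. Dppa3's shares rest on a pluripotent mean from arrays that themselves stood at 28.2% and 172% of it. These shares are descriptions on the linear scale, with no test.

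**Figure D3:**
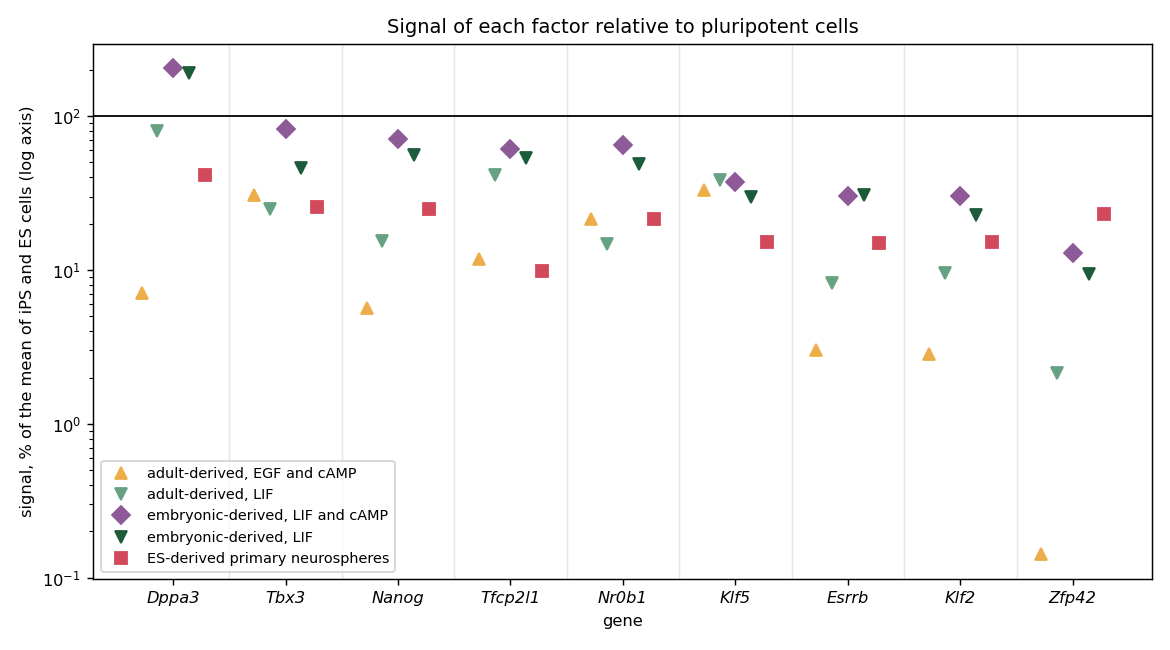
Signal of each gene as a percent of the mean of the iPS and ES arrays, on a log axis, for the 4 fibroblast-derived arrays and the ES-derived primary neurospheres, with genes ordered by their share in embryonic-derived neurospheres. Dppa3 lies above 100% on both embryonic-derived arrays, Zfp42 lies lowest on all 4 fibroblast-derived arrays, and Zfp42 is the gene for which the ES-derived primary array exceeds all 4.

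Between adult-derived and embryonic-derived neurospheres, 0 of 9 factors were called by limma, beside 0.469% of all genes. An unadjusted p under 0.05 was held by 2 of 9 (Esrrb and Dppa3), beside 1603 of the 13650 genes. The difference was below 0 for 8 of 9, from -3.81 ± 1.79 for Zfp42 to -1.12 ± 0.76 for Tbx3, and 0.098 ± 0.66 for Klf5. Esrrb (-2.46 ± 0.75, adjusted p = 0.247, limma) and Dppa3 (-2.81 ± 1.19, adjusted p = 0.41, limma) came nearest by their unadjusted p. For Klf5 the arrays of the pairs overlapped.

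Medium differed within both pairs, with 1 array each and so no test. In adult-derived neurospheres, 6 of 9 factors were lower by 1 or more on the log2 scale in EGF and cAMP than in LIF, against 8.01% of all genes lower by that much. The differences were -3.05 for Dppa3, -3.04 for Zfp42, -1.78 for Tfcp2l1, -1.64 for Klf2, -1.44 for Nanog and -1.29 for Esrrb. Klf5 (-0.21), Tbx3 (0.29) and Nr0b1 (0.51) differed by less than 1. In embryonic-derived neurospheres, adding cAMP to LIF went with no difference of 1 or more in any of the 9, the largest being 0.82 for Tbx3, where 4.17% of all genes differed by that much in either direction. Socs3, a direct target of STAT3, had a signal of 1306 in EGF and cAMP and 1716 in LIF. The summed signal of 10 fibroblast genes was 941 in EGF and cAMP and 6061 in LIF, and its part in the factors' differences was not tested.

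Against the adult skin fibroblasts, 4 factors were higher in the 4 fibroblast-derived arrays. They were Tfcp2l1 (5.71 ± 1.15), Nr0b1 (5.11 ± 1.06), Esrrb (4.17 ± 0.84) and Klf5 (2.70 ± 0.73). Their adjusted p-values by limma were 0.00986, 0.0111, 0.00968 and 0.0299, beside 15.0% of all genes higher and 23.2% called in either direction. With the line as a replicate block, Nanog (5.91, adjusted p = 0.0254) and Dppa3 (3.69, adjusted p = 0.0263) passed too. None of the arrays compared here has a line, so the block changed only the error taken from other groups. Without either primary neurosphere array Nanog was called as well, for 5 of 9. Klf2 had a difference of 0.46 ± 1.29 with the 95% interval -2.48 to 3.40. The embryonic source fibroblasts are not among the groups, so the adult-derived arrays are the pair with a matching cell of origin.

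In adult-derived neurospheres alone, Tfcp2l1 (5.04 ± 1.26), Klf5 (2.75 ± 0.80) and Nr0b1 (4.29 ± 1.17) were higher than in the adult fibroblasts. There 12.3% of all genes were higher and 19.5% were called in either direction. Esrrb reached 2.94 ± 0.92 (adjusted p = 0.0548, limma), and passed with the line as a replicate block (adjusted p = 0.0409). Without the adult-derived array in LIF 0 of 9 were called, and only Tfcp2l1 was called without the array in EGF and cAMP or without either embryonic-derived array. Without either primary neurosphere array Esrrb and Nanog were called as well, for 5 of 9.

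Pluripotent cells exceeded the fibroblasts in 6 of 9 factors, all but Klf2, Tbx3 and Dppa3, beside 19.5% of all genes higher (39.1% either way). Differences ran from 4.19 ± 0.80 for Klf5 to 8.72 ± 2.19 for Zfp42. Klf2 (3.50 ± 1.42, adjusted p = 0.081, limma) and Dppa3 (3.65 ± 1.45, adjusted p = 0.0775, limma) passed with the line as a replicate block (adjusted p = 0.0366 and 0.0256). Without either primary neurosphere array Klf2 was called as well, for 7 of 9.

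Against the brain reference, GE neurospheres, 7 of 9 factors were higher in fibroblast-derived neurospheres, all but Zfp42 and Dppa3. There 15.6% of all genes were higher and 28.4% were called in either direction. None of the 9 reached a signal of 20 in GE neurospheres. Nanog had the largest difference (6.39 ± 2.003, adjusted p = 0.0432, limma), and Nr0b1 the smallest p (5.91 ± 1.06, adjusted p = 0.00461, limma). Klf5 (4.03 ± 0.73), Tbx3 (4.04 ± 0.84), Nr0b1 and Tfcp2l1 (5.47 ± 1.15) stayed called in a fit with no intensity trend and without any of 7 arrays in turn (both pluripotent, both secondary, both embryonic-derived and the adult-derived array in LIF), where Nanog, Esrrb and Klf2 were not. Dppa3 (3.78 ± 1.33, adjusted p = 0.063, limma) passed with the line as a replicate block (adjusted p = 0.0205), which pairs none of the arrays compared. Without either primary neurosphere array 9 of 9 were called, Zfp42 and Dppa3 included.

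Against secondary neurospheres of the pluripotent lines, 7 of 9 factors were higher in fibroblast-derived neurospheres, all but Zfp42 and Klf2. Of all genes, 17.0% were higher and 33.6% were called in either direction. Tfcp2l1 (4.58 ± 0.89, adjusted p = 0.0056, limma) and Nr0b1 (4.51 ± 0.82, adjusted p = 0.00413, limma) were called whichever of the 10 arrays in groups of 2 was left out, and the others lost the call without 1 or more of the arrays compared, so that the count fell as low as 2. Zfp42 differed by 2.12 ± 1.55 (adjusted p = 0.319, limma) and Klf2 by 2.85 ± 1.001 (adjusted p = 0.0564, limma, and 0.0245 with the line as a replicate block). Among the secondary arrays, 1 factor reached a signal of 20 in the iPS line, Klf5, and 5 did in the ES line. Without either primary neurosphere array Klf2 was called, for 8 of 9.

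Against primary neurospheres the count was 2 of 9, Tfcp2l1 (3.68 ± 0.89, adjusted p = 0.0152, limma) and Klf5 (2.31 ± 0.57, adjusted p = 0.0161, limma). Nr0b1 (2.31 ± 0.82, adjusted p = 0.0645, limma) joined them with the line as a replicate block (adjusted p = 0.0105). Of all genes, 15.6% were higher and 29.9% were called in either direction. For Zfp42 the difference was 0.046 ± 1.55. Which primary array was kept decided the count, which was 0 without the iPS-derived array and 6 without the ES-derived one. Without the iPS-derived array the differences of Nanog (-0.035), Esrrb (-0.23) and Klf2 (-0.36) were slightly below 0, and that of Zfp42 was -2.97. With 1 primary array per line, whether the direction for these genes depends on the line was not tested.

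Along the conversion of the pluripotent lines to neurospheres, the factors were lower at the primary stage for 7 of 9 genes, all but Zfp42 and Dppa3. There 10.8% of all genes were lower and 30.1% were called in either direction. The differences of primary neurospheres from pluripotent cells ran from -5.47 ± 1.79 for Nanog to -2.53 ± 0.76 for Tbx3 among those called. Zfp42 differed by -5.09 ± 1.79 (adjusted p = 0.0605, limma), and passed with the line as a replicate block (adjusted p = 0.0182), while Dppa3 differed by -2.02 ± 1.19 (adjusted p = 0.225, limma). In a fit of those 4 arrays alone, or without the ES cell array, only Esrrb, Klf5 and Tfcp2l1 were called. Without the iPS-derived primary array Nanog and Tbx3 were not called, and without the ES-derived one Zfp42 was.

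At the secondary stage 9 of 9 factors were lower than in pluripotent cells, beside 18.4% of all genes lower and 44.7% called in either direction. Nanog (-7.20 ± 1.79, adjusted p = 0.0116, limma) and Zfp42 (-7.17 ± 1.79, adjusted p = 0.0117, limma) had the largest differences, and Tbx3 the smallest (-3.19 ± 0.76, adjusted p = 0.00941, limma). Dppa3 lay just inside the threshold (-3.32 ± 1.19, adjusted p = 0.049, limma). Without the iPS-derived secondary array the count was 5, with Esrrb, Klf2, Klf5, Nr0b1 and Tfcp2l1 called.

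Between secondary and primary neurospheres 0 of 9 factors were called by limma, beside 2.78% of all genes. An unadjusted p under 0.05 was held by 1 of 9 (Nr0b1, -2.19 ± 0.95), beside 2781 of the 13650 genes. Without the iPS-derived primary array, Nanog and Nr0b1 were called. Secondary neurospheres against GE neurospheres gave 0 of 9 by limma, 1 (Klf5, 2.10 ± 0.80) with an unadjusted p under 0.05, and 3.89% of all genes, and Klf5 was called there without either primary array. In the comparison with GE neurospheres, 2450 of the 13650 genes had an unadjusted p under 0.05. All 9 differences from GE neurospheres were above 0, and the 95% interval was widest for Nanog, -3.79 to 6.21.

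**Figure D4:**
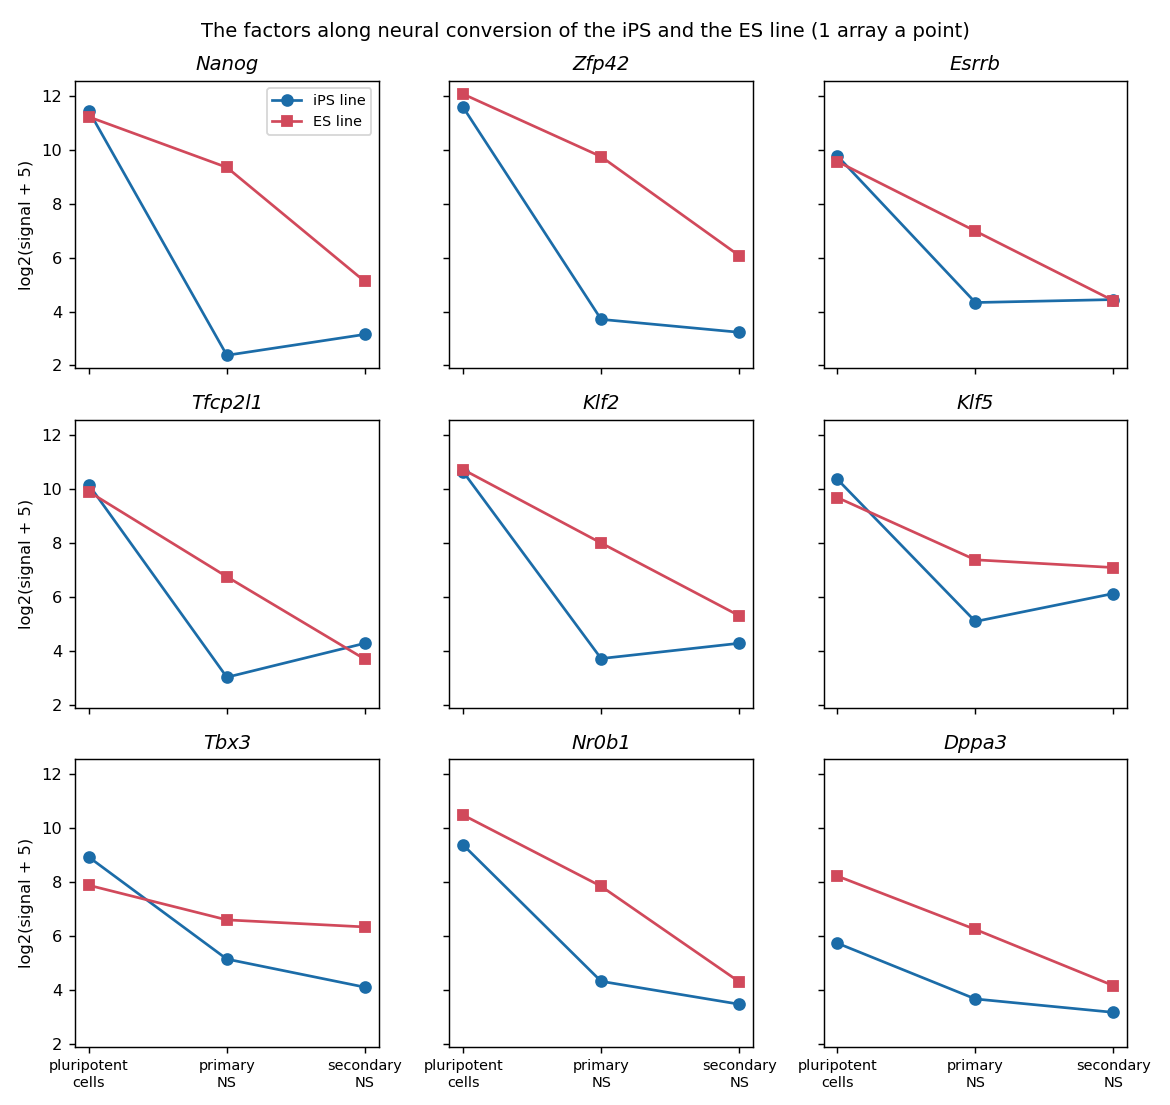
The 9 genes in pluripotent cells, primary neurospheres (NS) and secondary neurospheres of the iPS and ES lines, as log2(signal + 5) with 1 array a point. At the primary stage the ES line lies above the iPS line for every gene, and 7 of the 9 genes drop again between the primary and the secondary stage by more than 2 units in the ES line.

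The steps between stages are given for each line, with 1 array per line and stage. From the pluripotent to the primary stage, Nanog changed by -9.06 in the iPS line and -1.87 in the ES line, Zfp42 by -7.87 and -2.32, and Tfcp2l1 by -7.14 and -3.15. From the primary to the secondary stage, Nanog changed by 0.78 and -4.23, Zfp42 by -0.48 and -3.67, and Tfcp2l1 by 1.26 and -3.06. In the iPS line the first step was the larger fall for all 9 genes. In the ES line the second step was the larger for Nanog, Zfp42 and Nr0b1, both were close to equal for Esrrb, Tfcp2l1, Klf2 and Dppa3, and nearly all of the fall lay in the first for Klf5 (-2.31, then -0.29) and Tbx3 (-1.28, then -0.26). The difference in timing between the lines was not tested. As a share of the pluripotent mean, the factors were at most 8.52% (Tbx3) on the iPS-derived primary array, and between 9.82% (Tfcp2l1) and 41.4% (Dppa3) on the ES-derived one. Tested over 3 stages, iPS against ES origin gave 0 of 9 by limma, beside 0.00733% of all genes called, which is 1 gene. An unadjusted p under 0.05 was held by 3 of 9 (Zfp42, Nr0b1 and Dppa3), beside 1629 of the 13650 genes. All 9 differences were below 0, from -3.13 ± 0.94 for Zfp42 to -0.80 ± 0.58 for Esrrb, and Dppa3 had the smallest p (-2.02 ± 0.41, adjusted p = 0.245, limma). The sign was not the same at each stage. The iPS cells were above the ES cells for Nanog, Esrrb, Tfcp2l1, Klf5 and Tbx3. At the secondary stage the iPS line was above the ES line for Esrrb and Tfcp2l1, at signals below 20 in both lines. Only at the primary stage was the iPS line lower for every gene.

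Other genes of the naive state were counted in the same comparisons, with Klf4 also among the core factors. Of 11 tested of 12 listed, 3 were lower in the 4 fibroblast-derived arrays than in pluripotent cells, the factors Klf4 (-2.38 ± 0.53), Gbx2 (-2.38 ± 0.35) and Nr5a2 (-2.15 ± 0.59), and 0 were higher, with a median of -1.89. In primary neurospheres 7 of the 11 were lower than in pluripotent cells and in secondary neurospheres 9, with medians of -3.80 and -4.92. Of all genes, 9.77% were lower in the 4 fibroblast-derived arrays, 10.8% in primary and 18.4% in secondary neurospheres. Gbx2 went another way than most of the 9 factors, with 65.9 and 36 in adult-derived and 26.7 and 46.9 in embryonic-derived neurospheres, against 227 in iPS and 249.6 in ES cells. Its embryonic-derived and adult-derived arrays thus overlapped. Of the core factors, Pou5f1 had 1787 and 2069 in adult-derived and 1981 and 2218 in embryonic-derived neurospheres. Its difference from pluripotent cells was -0.39 ± 1.43 (adjusted p = 0.858, limma), and whether it differs from those of the 9 factors was not tested. Sox2 (-2.22 ± 0.67) and Klf4 were lower in fibroblast-derived neurospheres, at adjusted p-values of 0.0365 and 0.0125 by limma.

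Genes of the formative and primed states, which follow the naive one, did not pass in fibroblast-derived neurospheres against pluripotent cells, with 0 of 12 tested of 15 listed called by limma, 0 at an unadjusted p under 0.05, and a median of -0.02. In that comparison 30.2% of all genes were called, and 5801 of the 13650 genes had an unadjusted p under 0.05. Single arrays carried the formative and primed genes nonetheless. Fgf5, a growth factor of the formative epiblast, had 3.6 (EGF and cAMP) and 92.4 (LIF) in adult-derived, 17.2 and 29.7 in embryonic-derived and 129 in ES-derived primary neurospheres, against 1.2 in iPS and 1.6 in ES cells. Averaged over the 14 genes of that list on the arrays, log2(signal + 5) was 6.52 on the adult-derived array in LIF and 7.17 on the ES-derived primary array, against 5.52 and 5.70 in iPS and ES cells. On these arrays the 9 factors averaged 7.45 (adult-derived, LIF) and 7.66 (ES-derived primary), against 9.78 and 9.98 in iPS and ES cells.

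**Figure D5:**
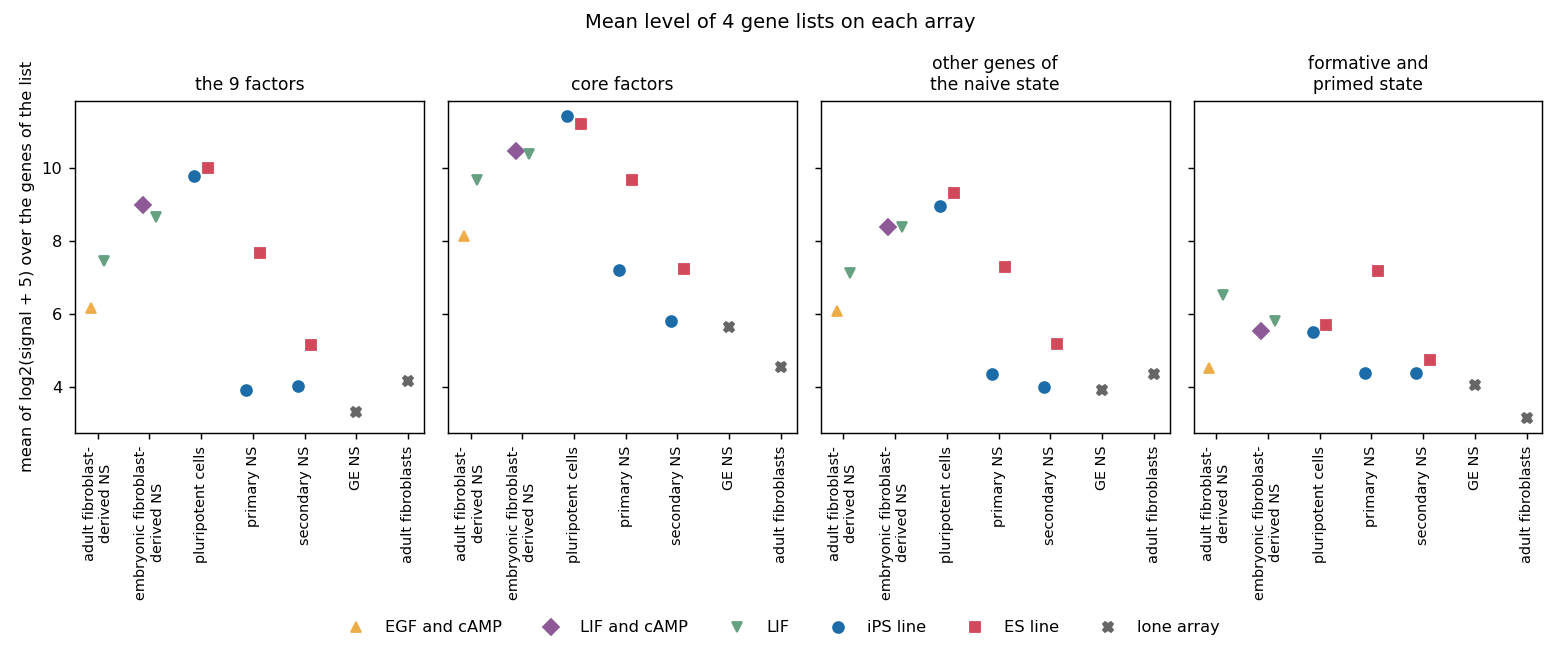
Mean of log2(signal + 5) over the 9 factors, 4 core factors, 11 other genes of the naive state and 14 genes of the formative and primed states, with 1 point per array (NS, neurospheres; GE, ganglionic eminence). The 9 factors and the other naive genes are highest in pluripotent cells and next highest in embryonic-derived neurospheres, while the formative and primed genes are highest on the ES-derived primary array.

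The list of signalling genes held 17 of the LIF, BMP and WNT pathways, which bear on the naive state, and of FGF and ERK signalling, which drives exit from it. In this list, Stat3 (0.97 ± 0.19), Jak1 (1.15 ± 0.31) and Fgfr1 (1.26 ± 0.34) were higher in fibroblast-derived neurospheres than in pluripotent cells, 0 were lower, and the median was 0.63. The 3 of 17 stand beside 20.4% of all genes called higher there, so the list was not called higher more often than genes at large. Socs3 had 1822 and 1529 in embryonic-derived neurospheres, against 1787 in iPS and 1022 in ES cells, and its signal was between 77.1 and 241 in the primary, secondary and GE neurospheres. In primary neurospheres 5 of the 17 were lower than in pluripotent cells, Socs3 and Stat3 among them, and 1 was higher, beside 10.8% of all genes lower and 19.3% higher.

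Markers of other cell types also differed between these arrays. As a check of the neurosphere label, 9 neural stem cell genes summed to a signal of 1246 and 1137 in adult-derived and 825 and 971 in embryonic-derived neurospheres, against 8304 and 7663 in primary, 13757 and 12146 in secondary and 16978 in GE neurospheres, and 380.2 in iPS and 138 in ES cells. In summed signal the fibroblast-derived arrays were thus above the pluripotent cells and far below every other neurosphere. Of the 9 genes, 7 were lower than in GE neurospheres, with a median of -3.91, beside 12.8% of all genes lower. Against pluripotent cells 5 were higher and 1, Slc1a3, was lower, beside 20.4% of all genes higher and 9.77% lower. Against fibroblasts 4 were higher and 1, Sox9, was lower, beside 15.0% of all genes higher and 8.21% lower. A signal of 20 was reached by 8 of 9 on both adult-derived and 7 on both embryonic-derived arrays. It was reached by 4 in iPS and 2 in ES cells, and by all 9 on the other neurosphere arrays. The summed signal of 9 trophoblast genes was 1348 and 1876 in embryonic-derived neurospheres (7 and 6 of 9 at 20 or more) and 148 and 252 in adult-derived neurospheres (2 and 6 of 9), against 133 and 97.6 in iPS and ES cells (2 of 9 each). The placental gene Tpbpa had 687 and 1324 in embryonic-derived neurospheres and at most 5.6 on the other arrays. Epithelial genes summed to 7299.8 and 5203 in embryonic-derived and 2189.6 and 3199 in adult-derived neurospheres, with 8, 8, 5 and 8 of 8 at 20 or more, against 2419 and 3253 in iPS and ES cells, with 5 of 8 each. The 10 fibroblast genes summed to 941 and 6061 in adult-derived (6 and 10 of 10 at 20 or more) and 4374 and 3274 in embryonic-derived neurospheres (10 of 10 each), against 464 in iPS and 81.9 in ES cells (6 and 1 of 10) and 41708 in the fibroblasts. Of these, Col3a1, Dcn, Prrx1 and Twist1 were higher in fibroblast-derived neurospheres than in pluripotent cells, and 0 were lower, beside 20.4% of all genes higher. The 5 macrophage genes summed to 449.9 (LIF and cAMP) and 2009.5 (LIF) in embryonic-derived and 204 and 193 in adult-derived neurospheres, against 536 and 397 in iPS and ES cells, with 4, 5, 2, 3, 3 and 2 of 5 at 20 or more. Klf5 and Tbx3 are also used by trophoblast and epithelial cells, and the part of these cell types in the factors' signals was not tested. Germ cell genes, with which Dppa3 is shared, gave 1 call of 6 tested in fibroblast-derived neurospheres against pluripotent cells. It was Ddx4, which was lower (-2.75 ± 0.61), beside 9.77% of all genes lower.

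Over the 12 arrays the 9 factors followed each other, with Pearson's r of log2(signal + 5) between 0.729 (Tbx3 with Dppa3) and 0.965 (Nanog with Nr0b1). The arrays share groups and lines, so these values describe likeness only. Among 6108 genes with a mean signal of 100 or more in pluripotent cells, the gene most like Nanog was Tdgf1 (0.99), a Nodal co-receptor, which was also most like Tfcp2l1 (0.987), followed there by Fgf4 (0.982). Nearest to Zfp42 were Zfp936 (0.984), Cbx7 (0.978) and Dppa4 (0.978), and nearest to Nr0b1 were Mybl2 (0.986) and Eras (0.986), a Ras protein of ES cells. Dppa3 was most like Calcoco2 (0.989), Esrrb like Fanci (0.982), Klf2 like Tgif1 (0.974), Klf5 like Gpn2 (0.975) and Tbx3 like Dock6 (0.952).

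Esrrb, Klf5 and Tbx3 have 5 further probe sets that passed the filter. Over 15 comparisons these had the sign of the brightest probe set in 71 of 75 cases, and in all 32 cases in which the brightest was called, though 20 of the 32 were called on the further probe set itself. The fall of Esrrb in adult-derived neurospheres against pluripotent cells was called on both of its further probe sets, and the exceptions in sign, none of them called, were Esrrb in adult-derived neurospheres against fibroblasts, Klf5 between adult-derived and embryonic-derived neurospheres, and Tbx3 between secondary and primary neurospheres and between iPS and ES origin.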

How the data were processed

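Per the labels' protocols, Trizol-extracted RNA of 12 mouse cultures was hybridised as biotin-labelled cRNA to Affymetrix arrays, which held 45101 probe sets. Per the submitters' processing notes, which name MAS5 and Affymetrix Expression Console 1.1, the authors made the deposited signal intensities with these, and their scaling to 1 trimmed mean hides changes in total RNA. The number of arrays limits the precision. The 34945 probe sets with 1 symbol in the platform annotation were used, and 932 with several and 9160 with none were not. Signal + 5 was taken to log2, genes had to reach 20 on 1 array, and the brightest probe set stood for a gene. Of 13650 genes, limma 3.58.1 (R 4.3.3; lmFit, eBayes with an intensity trend) tested 7 groups in 1 fit of 12 arrays, 2-sided, with 5 residual and 3.63 prior degrees of freedom. Lone arrays took the spread of the other groups. Origin was tested on 6 arrays with stage as a term (2 residual, 4.12 prior degrees of freedom). Results for the 4 fibroblast-derived arrays together weigh the adult and the embryonic pair equally. The fit was tested on simulated data. The genes, lists and rules were chosen with earlier results of these data known. Named are all 9 factors, 4 core factors, up to 4 genes with the smallest adjusted p per list and the 3 most alike per factor; Fgf5, Socs3, Gbx2 and Tpbpa were named by level after their values were seen. Replicate numbers pair arrays by line, iPS or ES. Their deviations correlated at 0.252 (pluripotent with primary), 0.0578 (pluripotent with secondary) and 0.425 (primary with secondary). Alternatives were pseudocounts of 1 and 20, quantile normalization, a common median, no filter and a filter of 100, the mean of probe sets, no trend, the line as a replicate block, only the groups compared, and each array left out. Promoters are RefSeq's, in GRCm38.p6, with Python 3.11.15.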

Additional observations from a re-analysis of the deposited data

Results flagged for a closer look

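Klf5 changed in opposite directions between the primary and the secondary neurospheres of the lines. It was higher at the secondary stage by 1.04 on the log2 scale in the iPS line, where the signal was 29 in primary and 64.7 in secondary neurospheres. In the ES line the difference was -0.29, with 161 in primary and 131 in secondary neurospheres. By sign alone the same held for Nanog, Tfcp2l1, Klf2 and Esrrb. The changes in the iPS and the ES line were 0.78 and -4.23 for Nanog and 1.26 and -3.06 for Tfcp2l1. They were 0.57 and -2.70 for Klf2 and 0.11 and -2.58 for Esrrb. In the iPS line these genes stayed below the filter signal of 20 at both stages, where values are noisy. Their primary and secondary signals there were 0.2 and 3.9 (Nanog), 3.1 and 14.4 (Tfcp2l1), 8.1 and 14.4 (Klf2), and 15.2 and 16.8 (Esrrb). Each line has 1 array per stage, and the difference between the lines was not tested.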

How the results depend on the processing

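Over 21 settings, 2408 of 2691 values of a factor in a comparison kept both their direction and their side of the threshold, 159 lost and 90 gained a call, and 34 changed sign, each in a comparison in which that factor was not called. Against pluripotent cells, a fit of only the groups compared called 6 factors in adult-derived, 5 in embryonic-derived and 6 in all fibroblast-derived neurospheres, and 3 in primary neurospheres. A common median called 1 in embryonic-derived neurospheres. For all fibroblast-derived arrays against pluripotent cells, a pseudocount of 1 and a fit with no intensity trend each called 1, Esrrb, and the line as a replicate block called 5. No intensity trend left 4 called against GE neurospheres. The replicate block changed no call beyond those given with the results, and none in the comparison of embryonic-derived neurospheres with pluripotent cells. Without stage as a block, iPS against ES origin still gave 0.

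With each array left out in turn, the number of factors called ranged from 0 to 7 for adult-derived, 0 to 3 for embryonic-derived and 0 to 7 for all fibroblast-derived neurospheres against pluripotent cells. It ranged from 3 to 5 for these and 0 to 5 for adult-derived ones against fibroblasts, 4 to 9 against GE, 0 to 6 against primary and 2 to 8 against secondary neurospheres. It was 3 to 8 for primary and 5 to 9 for secondary neurospheres against pluripotent cells, 0 to 2 for secondary against primary and 0 to 1 for secondary against GE neurospheres, and 5 to 7 for pluripotent cells against fibroblasts. A group left with 1 array was assumed to vary like the others. Not every setting tested the same number of genes, which was 13650 as reported, 13816 with quantile normalization and 13795 with a common median. Over all settings, the genes called against pluripotent cells numbered 1256 to 3740 (2926 reported) for adult-derived and 982 to 4209 (3389) for embryonic-derived neurospheres. For all fibroblast-derived neurospheres against pluripotent cells they numbered 2099 to 4927 (4122). They numbered 10 to 139 (64 reported) for adult against embryonic, 2 to 735 (380) for secondary against primary and 0 to 771 (531) for secondary against GE neurospheres. For fibroblast-derived neurospheres they numbered 2005 to 4681 (3169) against fibroblasts and 2429 to 5729 (4591) against secondary neurospheres. Against fibroblasts they numbered 1322 to 3404 (2668) for adult-derived neurospheres and 1992 to 6044 (5333) for pluripotent cells. The count of all genes with a given array left out is not set beside the counts of factors.

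The sign of Dppa3 in all fibroblast-derived arrays against pluripotent cells turned with quantile normalization (-0.12), a common median (-0.34) and a pseudocount of 1 (-0.0047), and it ranged from -1.20 to 1.29 with arrays left out. In adult-derived neurospheres alone Dppa3 ranged from -2.89 to 0.17. Klf5 between adult-derived and embryonic-derived neurospheres was -0.0097 for the mean of probe sets and -0.056 to 0.25 with arrays left out. Klf2 against fibroblasts was -4.78e-04 with a common median, and in adult-derived neurospheres -1.49 to 0.15. Against primary neurospheres, Zfp42 was -0.049 with quantile normalization, -0.11 with a common median and -0.11 with a pseudocount of 20. With arrays left out, the ranges there were -2.97 to 3.07 for Zfp42, -0.035 to 6.94 for Nanog, -0.23 to 2.42 for Esrrb and -0.36 to 3.93 for Klf2. Between secondary and primary neurospheres they were -5.22 to 1.76 for Nanog, -5.09 to 0.94 for Zfp42, -2.56 to 0.090 for Esrrb, -2.76 to 0.97 for Tfcp2l1, -3.21 to 1.08 for Klf2, -0.77 to 1.52 for Klf5 and -1.77 to 0.47 for Tbx3. Dppa3 in secondary against GE neurospheres ranged from -0.078 to 0.91, and for iPS against ES origin Esrrb ranged from -1.31 to 0.12 and Tfcp2l1 from -1.74 to 0.42. The cause of these turns was not tested, beyond the arrays that each setting leaves out. The signals near or below 20 lie in the range where MAS5 values are noisy, and this limits the lowest values of every factor.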
